A study of Asparagus officinalis with 12 samples.

Results

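Asparagine and glutamine synthetases, the enzymes that build nitrogen into amide form, were followed in elongating stems of garden asparagus (Asparagus officinalis). The members were all genes of the deposited expression table whose description begins with asparagine synthetase or glutamine synthetase. The rule found 10 of 35166 genes, of which 6 are asparagine synthetase (AS) genes and 4 are glutamine synthetase (GS) genes. The stems came from untreated greenhouse plants of the cultivar 'Fengdao 2'. They were taken when 10 cm tall (H-10), 25 cm (H-25), 40 cm (H-40) or 60 cm (H-60). RNA of H-10 came from the segment 3 to 6 cm above the ground, and RNA of the other 3 stages came from the segment at 17 to 20 cm, so every comparison with H-10 also compares 2 positions on the stem. Each stage had 3 libraries, 12 in all, of whole stem segments holding all tissues of the stem. Expression was given as FPKM, fragments per kilobase of gene scaled to the mapped fragments of the library, which adjusts for gene length and depth but not for the makeup of a library.

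Plants fix ammonium with GS, which joins it to glutamate to make glutamine at the cost of ATP. The chloroplast form (GS2) is known for assimilating ammonium in green tissue, and the cytosolic forms (GS1) for assimilating and recycling it in roots, vascular tissue and ageing organs. AS moves the amide nitrogen of glutamine to aspartate and releases asparagine and glutamate. Asparagine carries much nitrogen for its carbon and serves plants for transport and storage of nitrogen, and it builds up in spears of asparagus after harvest, when transcripts of AS are known to accumulate.

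Of the 6 AS genes, LOC109827898 is described as asparagine synthetase [glutamine-hydrolyzing] 2 and has a rice protein as its best match in the deposited annotation. It lies on chromosome 1 at 91065026 to 91081003 of the assembly Aspof.V1, on the plus strand. LOC109848100, on chromosome 7 at 18200421 to 18204317 (plus strand), is matched to the asparagine synthetase of asparagus itself. LOC109850950 (chromosome 7, 18068362 to 18083703, minus strand) and LOC109829987 (chromosome 2, 4165875 to 4171314, minus strand) are called AS-like and matched to the same asparagus protein. On chromosome 7, LOC109850950 and LOC109848100 are 117 kb apart with 1 annotated gene between them. LOC109834141 (chromosome 3, 53337153 to 53367255, plus strand) and LOC109823449 (chromosome 9, 52093674 to 52095341, minus strand) are described as domain-containing protein 1-like genes, matched to a chicken protein. Both enzyme domains, the glutamine amidotransferase domain and the asparagine synthase domain, were listed for 5 of the 6 AS genes, and no domain was listed for LOC109823449, whose gene length of 477 bases was the shortest of the members.

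The 4 GS genes comprise the chloroplastic GS LOC109849342 (chromosome 7, 24557012 to 24562916, plus strand), the cytosolic isozyme 1 LOC109851277 (chromosome 8, 111781652 to 111786803, minus strand), and 2 genes described as nodule isozyme-like. The nodule isozymes take their name from legume root nodules, where they are cytosolic enzymes. These genes are LOC109844495 (chromosome 6, 52676568 to 52681685, plus strand) and LOC109820495 (chromosome 1, 19477402 to 19487282, minus strand), and both are matched to a protein of moth bean. The catalytic domain was listed for all 4 GS genes, and the beta-Grasp domain for 3, the exception being LOC109844495.

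The libraries held 13468440 to 16980659 fragments assigned to genes, as recovered from the FPKM values, so that 1 fragment in a gene of 1 kb was worth 0.0522 to 0.0795 FPKM. Library 2 of H-25 stood apart from the other H-25 libraries. Genes of cytosolic ribosomal proteins (214 genes) took 3.64% of its fragments, against 7.48% and 6.997% in H-25 replicates 1 and 3, 3.03% to 4.10% in H-10, 1.27% to 1.52% in H-40 and 1.15% to 1.43% in H-60. The summed FPKM of 34 genes that mark photosynthetic tissue (33 expressed enough to be tested, 1 at 0 in all libraries) was 5850 to 12217 in H-10, 10708 to 15263 in H-25, 15008 to 20491 in H-40 and 9404 to 13494 in H-60. That of 25 genes marking lignifying vascular tissue (16 tested, 1 at 0 in all libraries) was 69.0 to 95.7 in the H-10 and H-25 libraries and 1780 to 3245 in the H-40 and H-60 libraries. That of 38 genes of dividing cells (27 tested, 7 at 0) was 2648 to 7942 in H-10 and H-25 and 960 to 1470 in H-40 and H-60. In such whole segments, fewer cells of a type and less RNA per cell cannot be told apart.

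The members spanned a wide range of expression. Averaged over the 12 libraries, LOC109849342 (351 FPKM) and LOC109851277 (335 FPKM) were the most expressed, above 98.7% and 98.6% of the 20352 genes that could be tested, meaning genes with at least 1 FPKM in at least 3 libraries. They were followed by the nodule isozyme-like LOC109844495 (57.0 FPKM), LOC109827898 (49.4 FPKM) and LOC109848100 (46.96 FPKM), which had higher means than 88.3%, 86.2% and 85.6% of tested genes. LOC109834141 (5.75 FPKM) and LOC109850950 (3.97 FPKM) were lower, and LOC109820495 averaged 1.34 FPKM. In total 8 members, 4 AS and 4 GS genes, could be tested. The other 2, LOC109829987 and LOC109823449, were near the limit of detection.

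**Figure D1:**
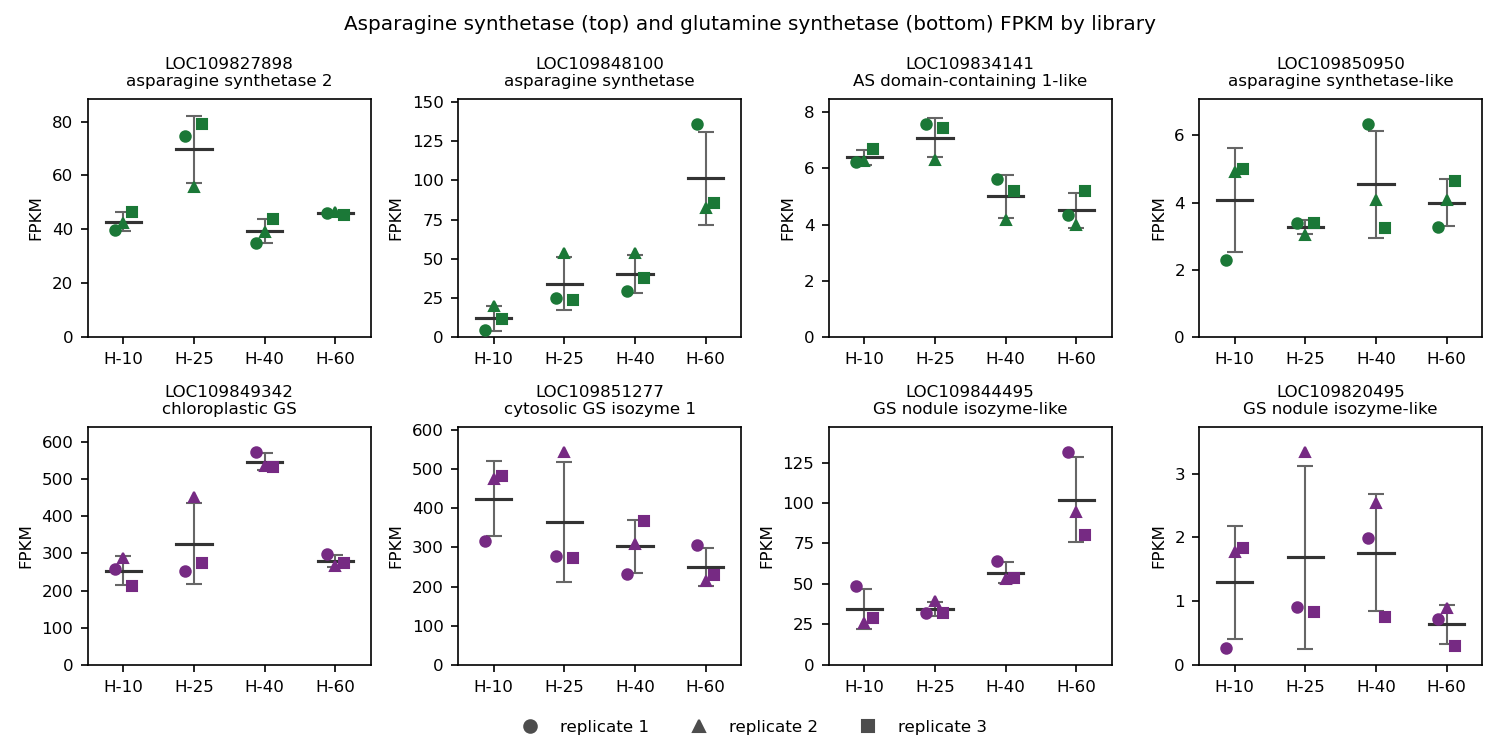
FPKM of the 8 tested members in each of the 12 libraries, with stages on the horizontal axis, 1 marker shape per replicate number, bars at the mean and whiskers of 1 SD (n = 3). LOC109848100 and LOC109844495 were highest in the 3 H-60 libraries, LOC109849342 in the 3 H-40 libraries and LOC109827898 in the 3 H-25 libraries, with H-25 replicate 2 apart from its group in several panels.

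Stages were compared with limma on log2(FPKM + 1) over all tested genes, each difference being later minus earlier stage. A member is said here to have risen or fallen where its p, adjusted by the Benjamini-Hochberg method over all tested genes, was at most 0.05, and is called a differentially expressed gene (DEG) where its log2 fold change was also at least 1 in size. Each stage enters more than 1 comparison with the same 3 libraries, so the comparisons are not independent of each other.

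LOC109848100, the best expressed of the genes matched to the known asparagus AS, had the largest fold between its lowest and highest stage means among the tested members. Its FPKM was 4.57, 20.1 and 11.4 in the H-10 libraries, 24.7, 54.0 and 24.0 in H-25, 29.4, 53.6 and 38.0 in H-40, and 136, 82.7 and 85.6 in H-60 (replicates 1, 2 and 3 in this order). All H-60 libraries lay above all others, all H-10 libraries lay below all others, and those of H-25 and H-40 overlapped. The means were 12.02 ± 7.78, 34.2 ± 17.1, 40.3 ± 12.3 and 101 ± 29.8 FPKM (SD, n = 3) in order of height. The H-60 mean was 2.96-fold the H-25 mean, and by limma the gene was a DEG in H-25 vs. H-60 (log2 fold change 1.60, SE 0.45, adjusted p = 0.0104). Steps between consecutive stages did not pass. The log2 fold change was 1.53 in H-10 vs. H-25 (95% interval 0.56 to 2.51, limma adjusted p = 0.0623), 0.29 in H-25 vs. H-40 (−0.68 to 1.27, adjusted p = 0.634) and 1.31 in H-40 vs. H-60 (0.34 to 2.29, adjusted p = 0.102). The first of these passed without H-10 replicate 2 (log2 fold change 1.98, limma adjusted p = 0.0445). The last passed with only the compared stages in the model (limma adjusted p = 0.0322). It also passed without H-10 replicate 1 (adjusted p = 0.0408), a library of neither stage that enters the shared estimate of the spread. Over the whole series of heights, a comparison chosen after the values were seen, the H-60 mean was 8.43-fold the H-10 mean (log2 fold change 3.14, SE 0.45, limma adjusted p = 0.000176).

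LOC109827898, the other well-expressed AS gene, had a different course with its highest level at H-25. Its FPKM was 39.6, 42.3 and 46.6 in H-10, 74.6, 55.5 and 78.9 in H-25, 35.0, 39.1 and 43.8 in H-40, and 46.2, 46.3 and 45.3 in H-60. The 3 H-25 libraries exceeded the other 9, among which H-10 overlapped with H-40 and with H-60. Its mean rose from 42.8 ± 3.54 FPKM at H-10 to 69.7 ± 12.5 at H-25 (SD, n = 3; log2 fold change 0.68, limma adjusted p = 0.0284), fell again to a mean of 39.3 ± 4.39 in H-40 (log2 fold change −0.80, limma adjusted p = 0.00199) and was 45.9 ± 0.562 at H-60 (log2 fold change from H-40 0.23, limma adjusted p = 0.454). It was also lower at H-60 than at H-25 (log2 fold change −0.58, limma adjusted p = 0.00974). None of these differences was of DEG size, since each log2 fold change was under 1 in size. The rise from H-10 to H-25 was lost without H-10 replicate 1 or 2 (limma adjusted p = 0.0768 and 0.0988) or H-25 replicate 1 or 3 (adjusted p = 0.114 and 0.126). It was also lost with only the compared stages in the model. The fall from H-25 to H-40 passed with any library left out. The summed markers of dividing cells also had their highest mean in H-25 (4419, 6082, 1232 and 1024 FPKM in order of height), as had the share of ribosomal protein genes, and all of these were lower in H-25 replicate 2 than in replicates 1 and 3. Their part in the course of LOC109827898 was not tested.

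The remaining AS genes were expressed at a few FPKM or less. LOC109834141, whose product resembles an animal protein holding an AS domain, had 6.21, 6.26 and 6.69 FPKM in H-10, 7.56, 6.30 and 7.42 in H-25, 5.63, 4.17 and 5.20 in H-40, and 4.34, 3.97 and 5.20 in H-60. Every H-40 and H-60 library lay below every H-10 and H-25 library. It fell from H-25 to H-60 (7.09 to 4.503 FPKM on average, log2 fold change −0.56, SE 0.18, limma adjusted p = 0.0204), short of DEG size, and the fall did not pass without H-25 replicate 1 or 3 or H-60 replicate 1 or 2 (adjusted p = 0.0654, 0.0650, 0.0546 and 0.0782). LOC109850950, the neighbour of LOC109848100 on chromosome 7, ranged from 2.30 to 6.32 FPKM, with stage means of 4.07, 3.27, 4.55 and 4.003 FPKM. No comparison passed for it. Its H-25 to H-60 interval of −0.38 to 0.82 on the log2 scale overlapped that of LOC109848100, 0.63 to 2.58. The log2 fold change of LOC109848100 in the same comparison was 1.60. The difference between the 2 genes was not tested.

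LOC109829987 had 49 fragments in all 12 libraries together, with a highest value of 0.537 FPKM (16 fragments, H-40 replicate 2) and none in 2 libraries. LOC109823449 had a single fragment, in H-40 replicate 1 (0.135 FPKM), and none in the other 11 libraries. A count of 0 in a library still allows up to 3 fragments, by counting error alone.

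The chloroplastic GS gene LOC109849342 peaked at H-40. It had 259, 289 and 211 FPKM in H-10, 253, 452 and 273 in H-25, 572, 535 and 531 in H-40, and 298, 266 and 274 in H-60. The H-40 libraries exceeded the other 9, of which H-25 replicate 2 was the highest. The means were 253 ± 39.1, 326 ± 110, 546 ± 22.8 and 279 ± 16.8 FPKM (SD, n = 3). The gene rose 1.68-fold from H-25 to H-40 (log2 fold change 0.79, SE 0.22, limma adjusted p = 0.0133) and fell from H-40 to H-60 (log2 fold change −0.97, SE 0.22, limma adjusted p = 0.0213), both short of DEG size. H-10 vs. H-25 (log2 fold change 0.33, limma adjusted p = 0.422) and H-25 vs. H-60 (−0.17, adjusted p = 0.534) did not pass. Without H-25 replicate 2 the rise to H-40 was of DEG size (log2 fold change 1.05, limma adjusted p = 0.000512). It did not pass without H-25 replicate 1 or 3 (adjusted p = 0.0674 and 0.0575), or with only the compared stages in the model. The fall to H-60 did not pass without H-40 replicate 1 or 3 (limma adjusted p = 0.0664 and 0.0628) or without H-60 replicate 1, 2 or 3 (0.0530, 0.0969 and 0.0624). The summed markers of photosynthetic tissue had their highest mean at H-40 too, 16942 ± 3077 FPKM against 8865 to 12465 in the other stages, and their part in the course of LOC109849342 was not tested.

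The cytosolic isozyme 1 gene LOC109851277 was the most expressed member at H-10 and passed no comparison. Its FPKM was 315, 475 and 483 in H-10, 278, 543 and 273 in H-25, 231, 308 and 368 in H-40, and 306, 214 and 230 in H-60. The stage means in order of height were 424 ± 94.8, 365 ± 154, 302 ± 68.6 and 249.9 ± 49.4 FPKM (SD, n = 3), and neighbouring stages overlapped in each case. In H-10 vs. H-60, chosen after the values were seen and across 2 stem positions, the log2 fold change was −0.75 (95% interval −1.40 to −0.11, limma adjusted p = 0.0569).

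LOC109844495, the better expressed nodule isozyme-like gene, was highest at H-60. Its FPKM was 48.5, 25.8 and 29.2 in H-10, 32.3, 39.5 and 31.9 in H-25, 64.4, 53.0 and 53.6 in H-40, and 131, 94.7 and 80.2 in H-60. Libraries of H-10 and H-25 overlapped, those of H-40 lay above both, and those of H-60 above H-40. The means were 34.5 ± 12.2, 34.6 ± 4.30, 57.0 ± 6.44 and 102 ± 26.4 FPKM (SD, n = 3). It rose from H-25 to H-40 (log2 fold change 0.71, SE 0.24, limma adjusted p = 0.0336), short of DEG size, and was a DEG in H-25 vs. H-60 (2.95-fold by the means, log2 fold change 1.51, SE 0.24, limma adjusted p = 0.000271). The step from H-40 to H-60 did not pass (0.81, limma adjusted p = 0.0630), but it did with the replicate number as a block (adjusted p = 0.0367). The rise to H-40 did not pass without H-25 replicate 1 or 3 (adjusted p = 0.0976 and 0.101) or any of the H-40 libraries (0.0597 to 0.0974), whereas the H-25 vs. H-60 difference passed with each library left out (log2 fold change 1.32 to 1.67). In H-10 vs. H-60 the log2 fold change was 1.56 (SE 0.24, limma adjusted p = 0.000292). The summed markers of lignifying vascular tissue were likewise higher in every H-40 and H-60 library than in any H-10 or H-25 library (means of 87.1, 74.1, 2245 and 2573 FPKM). LOC109848100 lacked this split, since its H-25 and H-40 libraries overlapped. The part of these markers in the course of LOC109844495 or LOC109848100 was not tested.

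The second nodule isozyme-like gene, LOC109820495, was low, with 0.263, 1.78 and 1.84 FPKM in H-10, 0.901, 3.34 and 0.822 in H-25, 1.99, 2.53 and 0.744 in H-40, and 0.721, 0.888 and 0.295 in H-60. These values rest on 6 to 65 fragments per library. No comparison passed for it, and its log2 fold change in H-40 vs. H-60 had a 95% interval of −1.62 to 0.20.

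**Figure D2:**
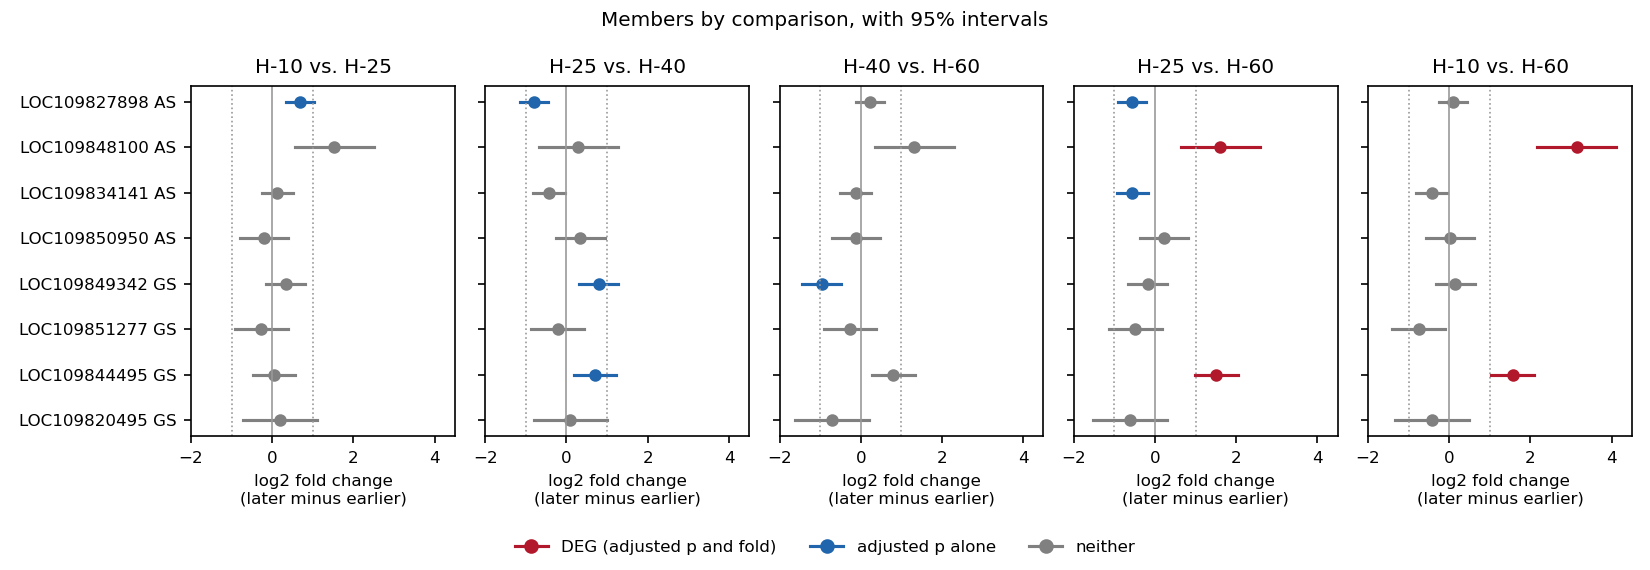
Log2 fold changes (later minus earlier stage, horizontal axis, log2(FPKM + 1) scale) of the 8 tested members in 5 comparisons, with 95% intervals from limma and dotted lines at −1 and 1. Only LOC109848100 and LOC109844495 were DEGs, in H-25 vs. H-60 (1.60 and 1.51) and in H-10 vs. H-60 (3.14 and 1.56).

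Counted over the 8 tested members, no member was a DEG between consecutive stages by limma, and none was by voom on the recovered fragments. In H-10 vs. H-25, 1.54% of all tested genes were higher DEGs and 2.91% lower DEGs, and 1 member rose where 2.66% of genes rose and 3.65% fell by the adjusted p alone. Higher genes made up 34.6% of the DEGs of this comparison with FPKM and 15.7% with TPM, a scaling that gives every library the same total. In H-25 vs. H-40, 11.9% of genes were higher and 12.2% lower DEGs, and 2 members rose and 1 fell where 20.0% and 20.2% of genes did so. In H-40 vs. H-60, 3.02% were higher and 2.28% lower DEGs, and 1 member fell, with 3.91% of genes rising and 3.68% falling. With the replicate number as a block, 1 member rose and 1 fell in this comparison. In H-25 vs. H-60, 2 members were higher DEGs and none were lower ones, where 16.3% and 16.2% of genes were, and 2 members rose and 2 fell by the adjusted p, where 25.3% and 24.8% of genes did. In H-10 vs. H-60, 2 members were higher DEGs and none lower (13.5% and 13.7% of genes), and the same count of 2 rose and 0 fell by the adjusted p alone (21.9% and 22.0% of genes). Unadjusted p values were at most 0.05 for 2, 4, 3, 4 and 4 members in these 5 comparisons, in the order given.

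The median log2 fold change of the tested members was 0.16 in H-10 vs. H-25, 0.20 in H-25 vs. H-40, −0.12 in H-40 vs. H-60 and −0.33 in H-25 vs. H-60. Over all tested genes it was 0.00, 0.01, 0.01 and 0.02. In H-25 vs. H-60 3 members had positive and 5 negative log2 fold changes, so that the 2 DEGs went against the sign of the members' median. With TPM scaling, the median of all genes moved to −0.18 in H-10 vs. H-25 and to 0.15 in H-25 vs. H-60. The log2 fold change of LOC109827898 in H-10 vs. H-25 was then 0.45 (limma adjusted p = 0.110), those of LOC109834141 and LOC109844495 turned from 0.13 and 0.05 to −0.07 and −0.18, and that of LOC109834141 in H-25 vs. H-60 was −0.45 (adjusted p = 0.0800). The DEGs LOC109848100 and LOC109844495 stood at 1.76 and 1.66 in H-25 vs. H-60 on that scale, each well above the shifted median.

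In H-25, replicates 1 and 3 were closer to each other than to replicate 2 in all 8 tested members. Replicate 2 held 54.0 FPKM of LOC109848100 against 24.7 and 24.0, 452 of LOC109849342 against 253 and 273, 543 of LOC109851277 against 278 and 273, and 3.34 of LOC109820495 against 0.901 and 0.822. LOC109844495 was also higher in it (39.5 against 32.3 and 31.9 FPKM). LOC109827898 was lower in it, at 55.5 FPKM against 74.6 and 78.9, as were LOC109834141 (6.30 against 7.56 and 7.42) and LOC109850950 (3.03 against 3.39 and 3.39). The library also had the low share of ribosomal protein genes given above, 3.64%, a lower sum of dividing-cell markers (3624 FPKM against 7942 and 6678) and a higher sum of photosynthetic markers (15263 against 11424 and 10708). The part of these values in the members' differences was not tested.

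Within each family, the genes that supplied the transcripts shifted with height. The summed AS FPKM was 52.8 to 73.7 in H-10, 110 to 119 in H-25, 76.5 to 101 in H-40 and 137 to 190 in H-60. LOC109827898 made up 66.4% ± 8.77 of this sum in H-10, 61.3% ± 12.6 in H-25, 44.3% ± 5.15 in H-40 and 30.1% ± 5.03 in H-60 (SD, n = 3). LOC109848100 made up 17.4% ± 9.35, 29.6% ± 13.7, 44.4% ± 7.51 and 64.2% ± 6.40, and was the larger contributor in every H-60 library. The AS-like genes and the domain-containing genes together supplied the remainder, at most 9.96% each on average at any stage.

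The summed GS FPKM exceeded the AS sum in every library. It was 622 to 791 in H-10, 564 to 1038 in H-25, 870 to 953 in H-40 and 575 to 736 in H-60. LOC109849342 supplied 35.7% ± 6.27, 45.2% ± 1.82, 60.4% ± 5.09 and 44.5% ± 3.52 of it, and LOC109851277 supplied 59.1% ± 8.05, 49.6% ± 2.57, 33.1% ± 6.09 and 39.4% ± 2.21. In H-25 replicate 2 these shares, unlike the sum, were close to those of the other H-25 libraries. LOC109844495 supplied 5.03% ± 2.42, 5.01% ± 1.05, 6.31% ± 0.961 and 16.0% ± 2.10, so its share at H-60 lay above that of every other stage. The ratio of summed GS to summed AS FPKM was 10.98 ± 0.720 in H-10, 6.31 ± 2.10 in H-25, 10.3 ± 1.28 in H-40 and 4.07 ± 0.165 in H-60. All H-60 libraries (3.88 to 4.18) lay below all others, the lowest of which was 5.09 in H-25. These sums and ratios are descriptions without a test, since the members were chosen as a set.

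**Figure D3:**
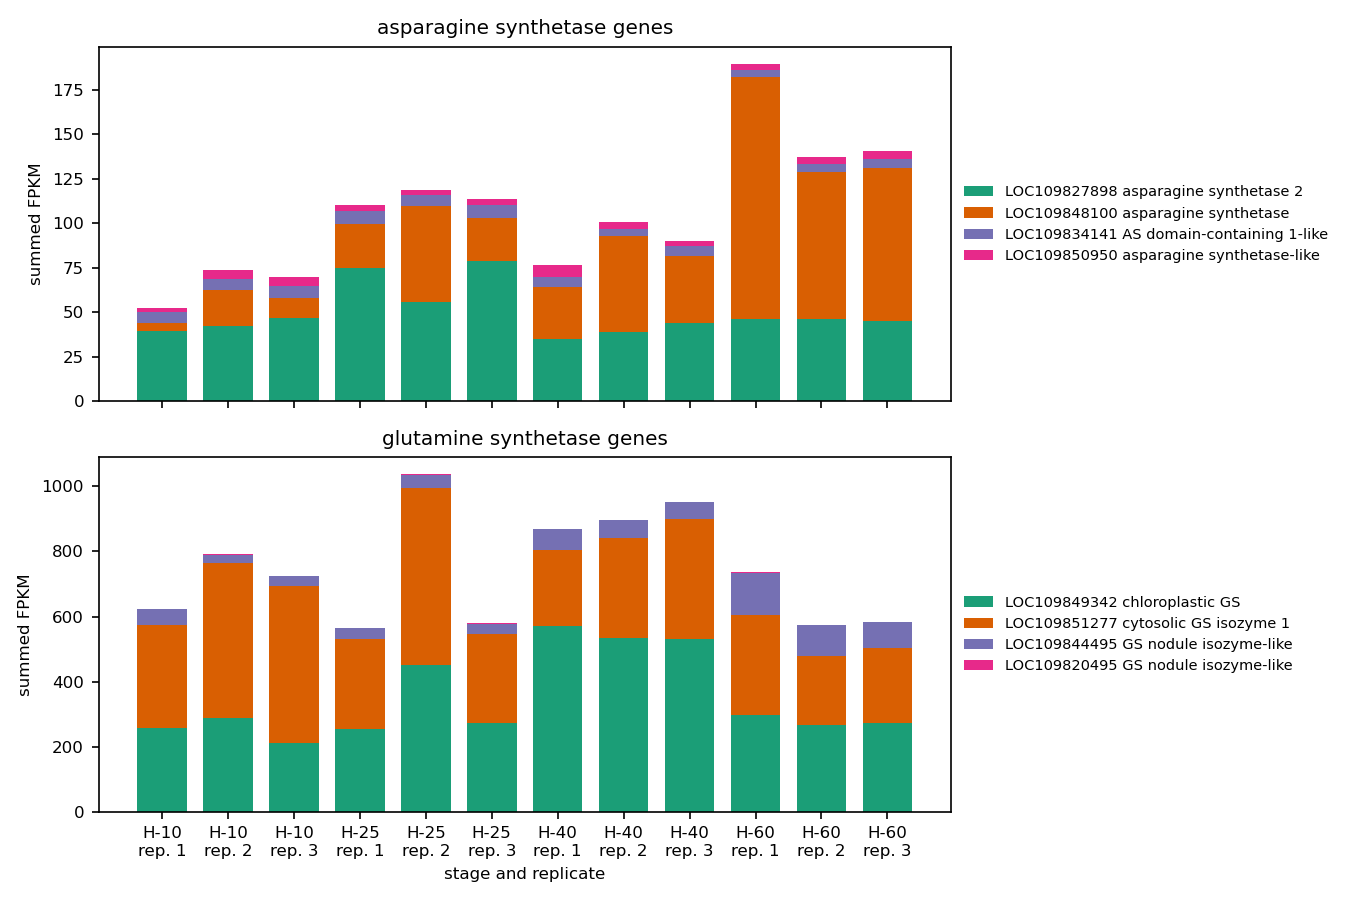
Summed FPKM of the 4 tested AS genes (upper panel) and the 4 tested GS genes (lower panel) in each of the 12 libraries, stacked by gene. LOC109848100 filled 60.2% to 71.5% of the AS sum in the H-60 libraries against 8.65% to 27.3% in H-10, and LOC109849342 and LOC109851277 together filled most of the GS sum in every library.

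Across the 12 libraries, the best expressed members of each family did not vary together. Correlations here are descriptions over libraries that also share their stages. Pearson's r on log2(FPKM + 1) between the AS genes LOC109827898 and LOC109848100 was 0.01, and that between the GS genes LOC109849342 and LOC109851277 was 0.02. Other pairs within a family went in both directions. Between LOC109827898 and LOC109834141, r was 0.59 (Spearman's rho = 0.55). Negative values were found between LOC109834141 and LOC109848100 (r = −0.66, rho = −0.66) and between LOC109844495 and LOC109851277 (r = −0.58, rho = −0.59). Between the low LOC109820495 and the GS genes LOC109851277 and LOC109849342, r was 0.54 and 0.48, and rho was lower at 0.35 and 0.34. Across the families, LOC109848100 and LOC109844495, the members that were DEGs, had r = 0.69 and Spearman's rho = 0.79, and LOC109834141 and LOC109844495 had r = −0.81. The genes most like LOC109827898 were the pescadillo homolog LOC109847693 (r = 0.95), whose product acts in ribosome assembly, the uncharacterized LOC109834936 (0.95), LOC109835684 (0.95), the DNA ligase 1-like LOC109833872 (0.95) and the zinc-finger homeodomain gene LOC109824258 (0.94). Those most like LOC109849342 were the SRM1-like transcription factor gene LOC109840718 (0.96), the sterol reductase-like LOC109836777 (0.95), the cytochrome P450 gene LOC109840776 (0.95), the chloroplast protease gene FTSH 1-like LOC109849260 (0.95) and LOC109820870, PLASTID MOVEMENT IMPAIRED 1 (0.94). For LOC109848100, looked at after its values were seen, the 5 closest genes were the uncharacterized LOC109833856 (r = 0.95), the Sec61 subunit alpha-like LOC109841060 (0.93), the ubiquitin ligase gene LOC109824993 (0.93), the cytochrome P450 gene LOC109824086 (0.93) and the amino acid permease 4-like LOC109837710 (0.93). For LOC109844495, also looked at after its values were seen, the closest were the uncharacterized LOC109820366 (r = 0.97) and the transmembrane protein 87B-like LOC109833696 (0.96). Next came the probable mediator subunit 26b gene LOC109822137 (0.96), the CHUP1 gene LOC109831939 (0.96) and the probable carboxylesterase 17 gene LOC109849532 (0.95).

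A gene outside the rule, LOC109836494, described as protein fluG, carries a GS catalytic domain in the deposited annotation. It had 16.9 ± 3.37, 15.3 ± 4.13, 4.91 ± 0.882 and 3.73 ± 1.19 FPKM in order of height (SD, n = 3).

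Around the synthetases, 47 further genes of amide nitrogen handling in 11 groups were examined, and 33 of them could be tested. Of these, 1 was a higher and 1 a lower DEG in H-10 vs. H-25, 7 and 2 in H-25 vs. H-40, 2 and 0 in H-40 vs. H-60, and 9 and 5 in H-25 vs. H-60, with medians of −0.08, 0.08, 0.02 and 0.08 on the log2 scale, against the shares of all genes given above. In H-25 vs. H-60, 14 of 33 of these genes were thus DEGs, beside 2 of the 8 synthetases and 32.5% of all tested genes.

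Genes that break down asparagine moved in both directions. L-asparaginase releases ammonium from asparagine, and of 3 tested genes LOC109845404 fell from 26.4 ± 14.4 FPKM at H-25 to 6.18 ± 2.72 at H-40 (SD, n = 3; log2 fold change −1.81, limma adjusted p = 0.0139) and was at 3.30 ± 1.39 at H-60 (−2.53 against H-25, adjusted p = 0.00140). The first of these falls did not pass without H-25 replicate 1 or 3 or H-40 replicate 3 (adjusted p = 0.0648, 0.0609 and 0.0547). LOC109847559 rose from 2.70 ± 0.743 FPKM at H-10 to 12.3 ± 4.71 at H-25 (1.79, limma adjusted p = 0.0231). This rise did not pass without H-10 replicate 2 or 3 or H-25 replicate 1 or 3 (adjusted p = 0.0590 to 0.101), or with only the compared stages in the model (limma adjusted p = 0.0708). LOC109839484 rose from 15.8 FPKM in H-25 to 23.2 in H-60 on average (0.53, limma adjusted p = 0.0274), short of DEG size, and this did not pass without H-25 replicate 2 or 3 or H-60 replicate 2 or 3 (adjusted p = 0.0635 to 0.0895).

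Glutamate synthase returns the amide nitrogen of glutamine to glutamate. The NADH form LOC109840747, the better expressed of 2 tested genes, had 65.8, 70.0, 83.6 and 124 FPKM on average in order of height, and the ferredoxin form LOC109849057 had 24.8, 25.2, 35.6 and 20.6 FPKM, with its highest mean at H-40 as in LOC109849342. Neither was a DEG in any comparison with FPKM and all libraries, although the first rose from H-25 to H-60 (log2 fold change 0.88, limma adjusted p = 0.0244) and the second fell from H-40 to H-60 (−0.77, adjusted p = 0.0349). The rise of LOC109840747 did not pass without H-25 replicate 1 or 3 or H-60 replicate 1 or 2 (adjusted p = 0.0542 to 0.113), or with only the compared stages in the model (limma adjusted p = 0.0589). It was of DEG size with TPM (1.03), without H-25 replicate 2 (1.22) and without H-60 replicate 3 (1.04). The fall of LOC109849057 did not pass with TPM (adjusted p = 0.0502) or without any 1 of the H-40 and H-60 libraries (0.0586 to 0.159). Glutamate dehydrogenase 2 (LOC109826055) was a higher DEG in H-25 vs. H-40 (3.55 to 12.9 FPKM, log2 fold change 1.65, limma adjusted p = 0.000395). Glutamate dehydrogenase 1 (LOC109832968), with means of 36.4 to 60.9 FPKM, rose there short of DEG size (0.79, adjusted p = 0.0228). Its rise was of DEG size without H-25 replicate 2 (1.08). It did not pass without H-25 replicate 1 or 3 or H-40 replicate 1 or 2 (adjusted p = 0.0578 to 0.106), or with only the compared stages (limma adjusted p = 0.0560). Both tested glutamate decarboxylase genes, whose product consumes glutamate, were higher DEGs in H-25 vs. H-60. LOC109845243 went from 108 ± 29.1 to 407 ± 47.1 FPKM (log2 fold change 1.93, limma adjusted p = 2.12e-05) and LOC109833558 from 9.86 ± 8.08 to 45.1 ± 14.8 (2.28, adjusted p = 0.00106).

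Aspartate, the acceptor of the amide group in the AS reaction, is made by aspartate aminotransferase. Of 6 tested genes, 2 were higher and 3 lower DEGs in H-25 vs. H-60. The bifunctional LOC109839520 (log2 fold change 1.10) and LOC109826129 (1.16) were higher, while the chloroplastic LOC109819422 (−1.28), the mitochondrial LOC109823837 (−1.08) and the cytoplasmic-like LOC109839903 (−1.22) were lower, with limma adjusted p values of 3.00e-05 to 0.00236. The call of LOC109839520 was lost without H-25 replicate 1 or 3 or H-60 replicate 1, and that of LOC109823837 without H-60 replicate 3 or with TPM, as their fold changes then fell under the DEG size. The cytoplasmic LOC109848335, the most expressed of them, had means of 111 to 164 FPKM and was not a DEG. The alanine aminotransferase gene LOC109833660 was a lower DEG in the same comparison (147 to 55.9 FPKM, −1.39, adjusted p = 2.10e-05).

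In the remaining groups only PEP carboxylase and tRNA ligase genes were DEGs. PEP carboxylase replenishes the carbon skeletons used for aspartate, and of 3 tested genes only the low LOC109845743 was a DEG, at 0.0789 FPKM in H-25, 0.907 in H-40 and 3.60 in H-60 (log2 fold change 1.23 in H-40 vs. H-60, limma adjusted p = 0.00892). Without H-60 replicate 3 that fold change was 0.99, just under the DEG size. With a pseudocount of 0.1 it was 1.83 but did not pass (limma adjusted p = 0.0633). LOC109845743 met the filter through H-60 (2.67 to 5.26 FPKM), so the filter itself favoured a higher call there. Its highest values were 0.277 FPKM in H-10, 0.0920 in H-25 and 1.14 in H-40. LOC109848266 (75.3 to 99.5 FPKM by stage mean) and LOC109839875 (17.4 to 26.6 FPKM) were not DEGs. Of 7 tested ligases that load asparagine or glutamine onto tRNA, 3 were higher DEGs in H-25 vs. H-60 (2 without H-25 replicate 2), where 16.3% of all tested genes were. The most expressed, LOC109822224 (49.0 to 61.0 FPKM) and LOC109825498 (20.6 to 24.0 FPKM), were not. The ligases also held 1 lower DEG in H-10 vs. H-25, 2 higher in H-25 vs. H-40 and 1 higher in H-40 vs. H-60. Of all tested genes, 2.91%, 11.9% and 3.02% were such DEGs. Each of these calls in consecutive stages was lost when some single library was left out. None of the tested genes of nitrate and nitrite reduction (LOC109835182 and LOC109846283), ammonium transport (LOC109832920) or arginase and urease accessory proteins (4 genes, led by LOC109837781 and LOC109840801) was a DEG in any of the 5 comparisons on log2(FPKM + 1) with all 12 libraries. LOC109832920 fell from H-25 to H-40 (−0.86, limma adjusted p = 0.0136), of DEG size with a pseudocount of 0.1, with voom or without H-40 replicate 1. This fall did not pass with only the compared stages or without H-25 replicate 1 or 3 or H-40 replicate 3. LOC109846283 was a DEG in each consecutive comparison without H-25 replicate 2, and in H-40 vs. H-60 with only the compared stages. LOC109835182 was a DEG in H-25 vs. H-60 without H-60 replicate 3.

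**Figure D4:**
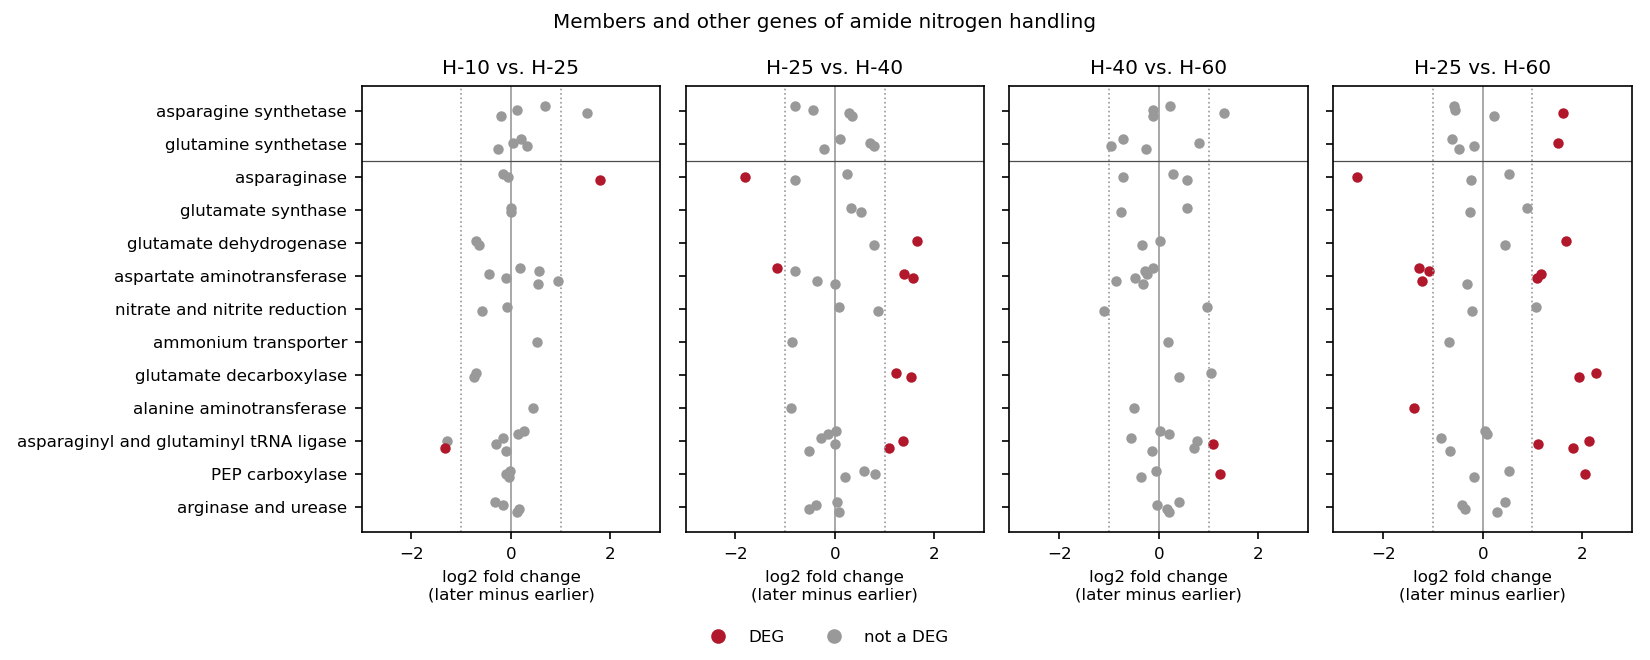
Log2 fold changes (later minus earlier stage, horizontal axis) of the 8 tested synthetases (above the line) and 33 tested genes of amide nitrogen handling in 11 groups (below it), 1 dot per gene, red for DEGs. In H-25 vs. H-60 the synthetases held 2 higher DEGs, and the other groups held 9 higher and 5 lower ones.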

How the data were processed

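The authors aligned strand-specific RNA-seq reads and deposited FPKM values for each library, and DESeq2, featureCounts, HISAT2 and StringTie are listed by the submitters, the first of which the authors used to compare groups. The 4 group means in the table were not used. The deposited columns are named H1 to H4 with a replicate number, and H1 to H4 were read as the 4 heights in rising order. A deposited gene length in bases, used as given, allowed whole fragments to be recovered, and 100% of values came out whole within 0.01 fragments. Of 35166 genes, 20352 had at least 1 FPKM in at least 3 libraries and were tested. limma 3.58.1 in R 4.3.3 was fitted once to all 12 libraries on the log2(FPKM + 1) scale, letting the variance depend on expression. A fold change is on that scale and understates the change of low genes. The script was tested on simulated data. The sources do not say how many stems each library pooled, so p values measure the spread between libraries. H-10 vs. H-60 was added after the values were seen. The members and gene lists were chosen with earlier results of these data known.

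Named genes were every member, the 2 most expressed tested genes of each list and every DEG of lists with at most 6 tested genes, and the 5 genes most correlated with the most expressed member of each family. The 5 genes most correlated with LOC109848100 and with LOC109844495 were added after the values were seen. All 10 members had the positions of the RefSeq annotation of Aspof.V1. Reads shared between similar members were not examined, and no sequences were used here. Alternatives were a pseudocount of 0.1, no filter, a mean of at least 5 FPKM, TPM, median-of-ratios rescaling, only the compared stages, the replicate number as a block, voom on recovered fragments, and leaving out each library. Same-numbered libraries of H-40 and H-60 deviated together from their group means in all 3 pairs (correlations 0.105 to 0.123), so the block is given beside results of H-40 vs. H-60 that it changes. In every other pair of stages at least 1 of the 3 correlations was under 0.1.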

Additional observations from a re-analysis of the deposited data

How the results depend on the processing

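Of 790 alternative values of single members (8 members, 5 comparisons), 785 stayed on the same side of the DEG threshold, 5 moved past it, and none lost a DEG call or reversed one; both DEGs of H-25 vs. H-60 and of H-10 vs. H-60 were kept in each of 20 alternatives. With only the compared stages in the model, H-10 vs. H-25 had 205 DEGs (0 members by the adjusted p alone, 0 list genes) instead of 905 (1 and 2), and H-40 vs. H-60 had 1 member DEG (LOC109848100), 2 members by the adjusted p alone and 4 list genes. With the replicate number as a block, H-10 vs. H-25 had 1 member DEG (LOC109848100, adjusted p = 0.0404) and 2 members by the adjusted p alone, and H-40 vs. H-60 had 2 by the adjusted p alone and 1 list gene. Whether the numbers pair the libraries is not given by the labels: of 18 same-number pairs 10 correlated above 0.1 (−0.09 to 0.33), and 9 of 12 libraries correlated best with their own number, a hint from the data only. TPM gave 0 members by the adjusted p alone in H-10 vs. H-25. H-40 vs. H-60 had 625 DEGs with the stricter filter, of which 42.4% were higher, against 1080 (56.9%), and 0 list genes with a pseudocount of 0.1, 1 with no filter, 1 with the stricter filter and 1 with voom. No filter left 1 list gene in H-10 vs. H-25. The stricter filter gave no value for LOC109850950, LOC109820495, LOC109845743 and LOC109832920.

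Leaving out each library in turn, the DEG counts were 325 to 2036 in H-10 vs. H-25 (highest without H-25 replicate 2), 3964 to 6143 in H-25 vs. H-40, 498 to 1276 in H-40 vs. H-60, 5940 to 7642 in H-25 vs. H-60 and 4949 to 5833 in H-10 vs. H-60. Member DEGs numbered 0 to 1 in each consecutive comparison and 2 to 2 in the others. Members past the adjusted p alone numbered 0 to 1, 1 to 4, 0 to 3, 3 to 4 and 2 to 3, and list DEGs 0 to 5, 5 to 12, 0 to 4, 13 to 15 and 5 to 9. The causes were not tested. Depth limits LOC109820495, LOC109829987 and LOC109823449, with 333, 49 and 1 fragments in total.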
